A study of Mus musculus with 2 samples.

Results

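A Prefix incomplete splice match is a transcript model whose introns are the first introns of a longer transcript, so that the 3′ part of that transcript is missing from the model. Long-read RNA sequencing of mouse adrenal gland gave 2228 such models with 2 or more reads in replicate 1 and 1939 in replicate 2, of 130376 and 118745 transcript models in all. The members were chosen by their deposited class (ISM, subtype Prefix) and their read count in each library, so neither of these is a result. Over both libraries the members form 3092 different intron chains. A model stood just outside the threshold with 1 read in 5030 and 4633 cases, and just inside it with exactly 2 reads in 942 and 840 cases.

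The series holds 1 group, adrenal gland of female B6CASTF1/J F1 hybrid mice aged 18 to 20 months, with 2 libraries from 1 µg of total RNA each and no second condition. The libraries have different biosamples but the same donor entry in the labels, so whether the libraries come from separate animals is not settled, and the spread between them may be technical. The pool sizes behind the biosamples are not given in the sources used here. Models carried 1478362 reads in the library of replicate 1 and 1007541 in that of replicate 2, and 1412947 and 933963 of these lay on annotated mouse genes. Summed reads of 6 cortex markers were 103357 and 68053, and of 5 chromaffin markers 16942 and 8785, against 8 and 4 for 2 liver markers and 3 and 2 for 3 kidney markers. Of other cell types, 5 adipocyte markers had 7255 and 3412 reads, of which members held 77 and 33, nearly all on Plin1. Summed reads of 3 skeletal muscle markers were 578 in replicate 1 and 0 in replicate 2, and no member fell on those genes. Intervals in parentheses are exact 95% Clopper-Pearson intervals and cover counting error only.

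As background, the 3′ end of a messenger RNA is made by cleavage and addition of a poly(A) tail, usually downstream of a hexamer such as AATAAA or ATTAAA. Cells can use a site within an intron or an upstream exon, which gives a shorter RNA and often a truncated protein. Complementary DNA made from an oligo(dT) primer can also start at a run of A inside an RNA, which leaves a read that lacks everything downstream of that run, and the A-rich stretch then lies in the transcript next to the end. U1 snRNP is known to protect long introns from early polyadenylation. In the adrenal gland the most abundant messages encode the enzymes of steroid synthesis and the granins of the medulla.

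The sequences around the ends of much-read chains are shown because the letters after the end carry much of what follows. For each of 3 end locations, chains were taken from the 4 with the most reads whose ends lay in that location in both libraries and differed by no more than 10 nt. Each line gives the spliced coding sequence of the annotated parent (GENCODE M21 transcripts, mm10), 5′ to 3′, with the model's last base at position 60 of 120. Capitals mark the 20-base window with the most A among those 120 bases. The first 2 end at an annotated transcript end inside the parent, with last exons chr12:111541706-111541727 (plus strand) and chr17:23809969-23810006 (plus).
Eif5: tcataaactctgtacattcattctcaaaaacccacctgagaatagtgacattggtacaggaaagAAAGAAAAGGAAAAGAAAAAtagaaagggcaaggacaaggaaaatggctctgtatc
Srrm2: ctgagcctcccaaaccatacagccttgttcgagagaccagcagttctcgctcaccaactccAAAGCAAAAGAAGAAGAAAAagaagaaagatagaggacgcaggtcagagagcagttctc

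The next 3 end at the edge of an exon, with last exons chr5:8798736-8798806 (plus strand), chr10:86698319-86698438 (minus) and chr1:55080102-55080347 (minus).
Abcb1b: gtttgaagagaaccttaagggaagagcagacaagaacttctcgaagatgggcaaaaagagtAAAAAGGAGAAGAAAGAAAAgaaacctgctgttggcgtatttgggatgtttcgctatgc
Hsp90b1: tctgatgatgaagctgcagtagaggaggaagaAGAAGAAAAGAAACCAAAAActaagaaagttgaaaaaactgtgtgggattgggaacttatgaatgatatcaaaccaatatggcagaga
Hspd1: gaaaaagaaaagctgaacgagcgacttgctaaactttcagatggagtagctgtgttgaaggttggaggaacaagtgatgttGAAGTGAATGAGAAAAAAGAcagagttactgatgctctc

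The last 4 end inside an exon, away from any annotated end, with last exons chr16:91654611-91654699 (plus strand), chr15:96418692-96420846 (minus), chr16:20659957-20659998 (plus) and chr4:136540356-136541067 (plus).
Son: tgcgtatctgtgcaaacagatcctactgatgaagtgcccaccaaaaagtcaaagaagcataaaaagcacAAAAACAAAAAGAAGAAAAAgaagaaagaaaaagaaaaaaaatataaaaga
Scaf11: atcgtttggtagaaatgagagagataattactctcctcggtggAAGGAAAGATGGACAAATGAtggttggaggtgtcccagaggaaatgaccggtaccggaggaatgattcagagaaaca
Psmd2: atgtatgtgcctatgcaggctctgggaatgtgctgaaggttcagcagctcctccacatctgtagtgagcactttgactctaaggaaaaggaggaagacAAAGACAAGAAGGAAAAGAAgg
Luzp1: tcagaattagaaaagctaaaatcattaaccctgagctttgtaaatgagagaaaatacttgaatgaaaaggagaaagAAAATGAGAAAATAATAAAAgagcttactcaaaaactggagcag

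The windows in capitals hold between 11 A (Scaf11) and 17 A (Son) of 20 bases. In Srrm2 and Abcb1b the window begins 1 base beyond the first base after the end. In Hsp90b1 it lies before the end, inside the model itself. Ends in introns could not be shown this way, because the intron sequence was not used here.

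The label was first set against the annotation. A parent, here an annotated transcript of the same gene with the member's introns as its first introns and at least 1 more, was found for 1975 members of replicate 1 and 1720 of replicate 2. The other 253 (11.4%) and 219 (11.3%) are prefixes only of a model that is itself new to the annotation. Of these, 54.9% and 57.5% end exactly at an annotated transcript end of the gene. That end can be the gene's last or an inner one: the chain of Hsp90ab1 with 2 exons stops at the same inner end as a chain that lacks 5 of 10 introns, so these members are not shown to keep the 3′ end. In 36.8% and 36.1% of them the most-read parent had 1 read, and 48.6% and 45.2% of them had more reads than any parent they were matched to. Most member reads of Cyp21a1, the 21-hydroxylase of steroid synthesis, are of this kind. Its chains with 10, 9 and 8 exons had 77, 49 and 29 reads in replicate 1, 2 chains with 9 exons had 83 and 34 reads in replicate 2, and all of these end at an annotated end of the gene.

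A further 181 members in each library, 9.16% and 10.5% of those with an annotated parent, reach the end of that parent within 50 nt or lie beyond it. Their last exon runs through introns that the parent removes, so they keep the 3′ end but lack the last splices. In all, the last exon of 315 members in each library, 15.9% and 18.3%, covers the whole next intron of the parent. Examples that end at an annotated end of the gene are Hnrnpa2b1, an hnRNP protein that binds pre-mRNA, with 20 and 15 reads on a chain lacking the last of 10 introns, and Mbd3, a subunit of the NuRD chromatin complex, with 69 and 49 reads on a chain that lacks the last of 6. The remaining 1794 and 1539 members end short of their parent, by a median of 12896 nt and 12279 nt of genome.

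Reads per 1000000 reads on annotated genes are written RPM. Members took a small share of the reads. They held 16666 reads in replicate 1 and 13498 in replicate 2, and those on annotated genes made up 1.18% (1.16 to 1.20) and 1.44% (1.42 to 1.47) of gene reads. Suffix models, the opposite kind of incomplete match that lacks the 5′ part, took 6.90% (6.86 to 6.95) and 7.12% (7.07 to 7.17). The difference in the Prefix share between libraries is larger than counting error, and with 1 value per library the biological spread cannot be set against it. The median member had 3 reads in each library, and 305 and 244 members had 10 or more. Protein-coding genes held 98.5% and 98.8% of the members.

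Over all members with an annotated parent, those that reach its end included, the median member lacked 5 introns in each library, with quartiles of 2 and 10 and a highest value of 92. It kept 56.5% of the introns in replicate 1 and 55.6% in replicate 2. Counted no further than the edge of the last shared exon, it kept 37.5% and 36.8% of the parent's length. Parent exons that a last exon runs through beyond that edge were not counted. Only 1 intron was lacking in 21.5% and 22.0% of members, and 10 or more in 27.6% and 26.3%. The parents had a median of 12 and 11 introns and 3396 nt and 3273 nt, against 6 and 7 introns and 2350 nt and 2390 nt for all annotated spliced models with 2 or more reads. The end lay in the coding span of 86.3% and 84.2% of members whose parent has both a start and a stop codon, and after the stop codon in 13.0% and 14.8%.

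Most members ended at a position that the annotation already holds. Of those with an annotated parent, 35.5% (33.4 to 37.6) in replicate 1 and 36.4% (34.1 to 38.7) in replicate 2 ended within 50 nt of an annotated transcript end of the gene. A further 40.7% (38.5 to 42.9) and 38.8% (36.5 to 41.1) ended within 10 nt of the edge of their last shared exon. Ends inside that exon made up 6.94% and 6.10%. Ends in the next intron, outside any annotated exon, made up 11.3% and 11.98%, and those in that intron but within an exon of another transcript 1.57% and 1.92%. The last 3.95% and 4.83% lay past the next intron. The order was the same in both libraries and every interval of a location in replicate 1 overlaps the one in replicate 2.

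**Figure D1:**
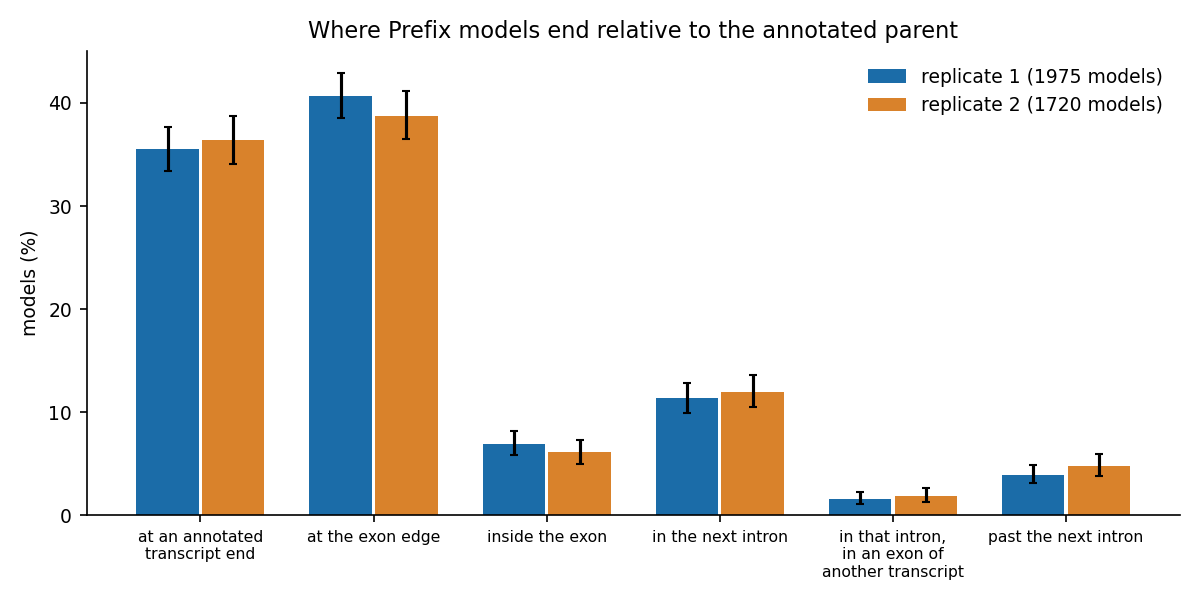
Share of Prefix models with 2 or more reads and an annotated parent (y axis, percent) by where they end relative to that parent (x axis), for replicate 1 (blue, 1975 models) and replicate 2 (orange, 1720 models), with exact 95% intervals. Annotated transcript ends and exon edges take 35.5% and 40.7% in replicate 1 and 36.4% and 38.8% in replicate 2.

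These positions are nearly all exact. Of the ends placed at an exon edge, 98.5% and 99.0% fell on the last base of the exon, and of those placed at an annotated end, 98.9% and 97.9% fell on its exact base. Exact exon edges were less common among the ends of the other classes: 38.8% and 37.4% of Prefix models on annotated genes ended exactly at an exon edge that is no annotated transcript end, against 12.7% and 10.5% of the smaller class Both (models labelled with both subtypes), 0.213% and 0.302% of Suffix models, 0.729% and 0.832% of NIC models (known splice sites in a new combination) and 0.229% and 0.308% of NNC models (with a new splice site). At an annotated transcript end stood 37.5% and 38.2% of Prefix models, against 87.2% and 87.9% of Suffix models. Part of these contrasts is set by the labels. A Suffix model holds the last introns of its parent, so its last exon is the last of that parent and is followed by no intron there. Only 23.7% and 24.4% of Prefix ends were at neither kind of position. Whether the deposited ends were moved to annotated positions when the models were built is not given in the sources used here and was not tested, so an end at an exon edge need not be the last base of the RNA or of the read.

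**Figure D2:**
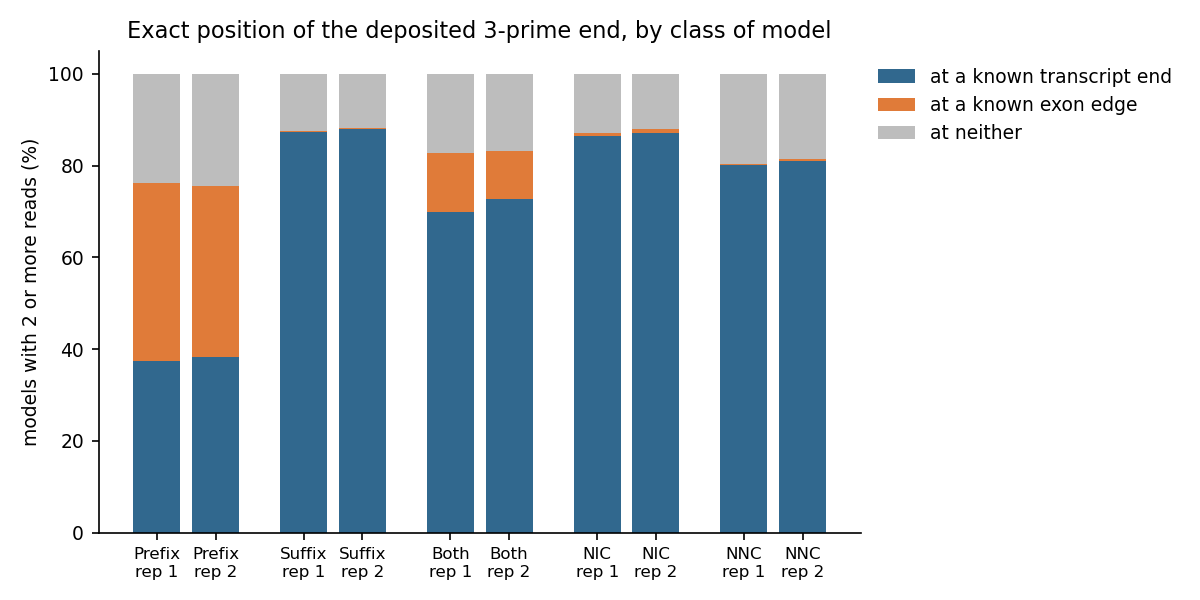
Share of models with 2 or more reads on annotated genes (y axis, percent, stacked to 100) whose deposited 3′ end falls exactly on an annotated transcript end (blue), on an exon edge that is no such end (orange) or on neither (grey), for 5 classes of models in each library (x axis). The orange part is 38.8% and 37.4% in Prefix models, 12.7% and 10.5% in Both models and under 1% in the Suffix, NIC and NNC models.

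The annotated ends that members used belonged to several kinds of transcript. A protein-coding transcript had that end in 51.6% and 53.4% of cases, and otherwise a transcript classed as retained intron in 28.0% and 26.5%, as processed transcript in 11.98% and 12.6%, and as a target of nonsense-mediated decay in 7.56% and 6.87%. In 13.8% and 14.5% the annotation marks the only matching transcripts as incomplete at the 3′ end. Of these ends 40.1% and 37.4% lay inside the parent's exon, 21.1% and 20.0% in its next intron and 33.8% and 37.1% past that intron.

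Members that ended in the next intron had long introns there. The intron's median length was 4632 nt in replicate 1 and 3992 nt in replicate 2, against 1392 nt and 1371 nt over all introns of the parents. The median end lay 1171 nt and 1334 nt into the intron. A long intron offers more positions at which an end can fall, and that was not separated from other causes. Among chains outside chromosome 18 with an intronic end shared within 10 nt by both libraries, the 4 with the highest mean RPM follow. Pcsk5, a proprotein convertase, had 24 and 13 reads on a chain whose last exon spans chr19:17652809-17654900 (minus strand), and Scarb1, the HDL receptor that supplies cholesterol for steroid synthesis, had 9 and 6 reads on a chain with last exon chr5:125280646-125281233 (minus strand). Fam120aos had 8 and 21 reads and Akr1cl, an aldo-keto reductase, 4 and 12 reads.

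The sequence just after the end was A-rich in a minority of members, but more often than elsewhere in the parents. Among members that end in an exon, 262 of 1251 in replicate 1 (20.9%, 18.7 to 23.3) and 232 of 1039 in replicate 2 (22.3%, 19.8 to 24.99) had 12 or more A in the 20 bases of the spliced parent after the end. The same held for 1.54% and 1.71% of all inner exon edges of those parents and for 1.52% and 1.57% of all 20-base windows in them. By location the share was 41.5% and 45.0% for annotated ends, 29.2% and 27.6% for ends inside an exon, and 11.4% and 12.3% for exon edges. Of the 701 and 626 members at annotated ends, 316 and 269 entered this count. The others ended in or past the parent's next intron, and the sequence after them was not read. Weighted by reads, the share over all 3 locations was 34.0% and 31.0%. Each of these intervals lies above the background, the lowest bound being 9.28% in replicate 1 and 9.93% in replicate 2 for exon edges.

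The A-rich stretch was often close to the end without starting at it. Of members that end in an exon, 86.8% and 87.2% had a window of 20 bases with 12 or more A within 150 nt on either side. The same held for 39.5% and 39.8% of inner exon edges. The richest such window was located, and of tied windows the one starting nearest the end was taken, which draws distances toward 0. For annotated ends and ends inside exons its start lay at a median distance of 0 nt from the end in both libraries. The quartiles were −14 nt and 12.25 nt in replicate 1 and −14 nt and 8 nt in replicate 2 for annotated ends, and −42.75 nt and 26.5 nt in replicate 1 and −12.5 nt and 30 nt in replicate 2 for ends inside exons. For exon edges it began 25 nt and 23 nt before the edge, with quartiles of −67 nt and 5 nt in replicate 1.

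**Figure D3:**
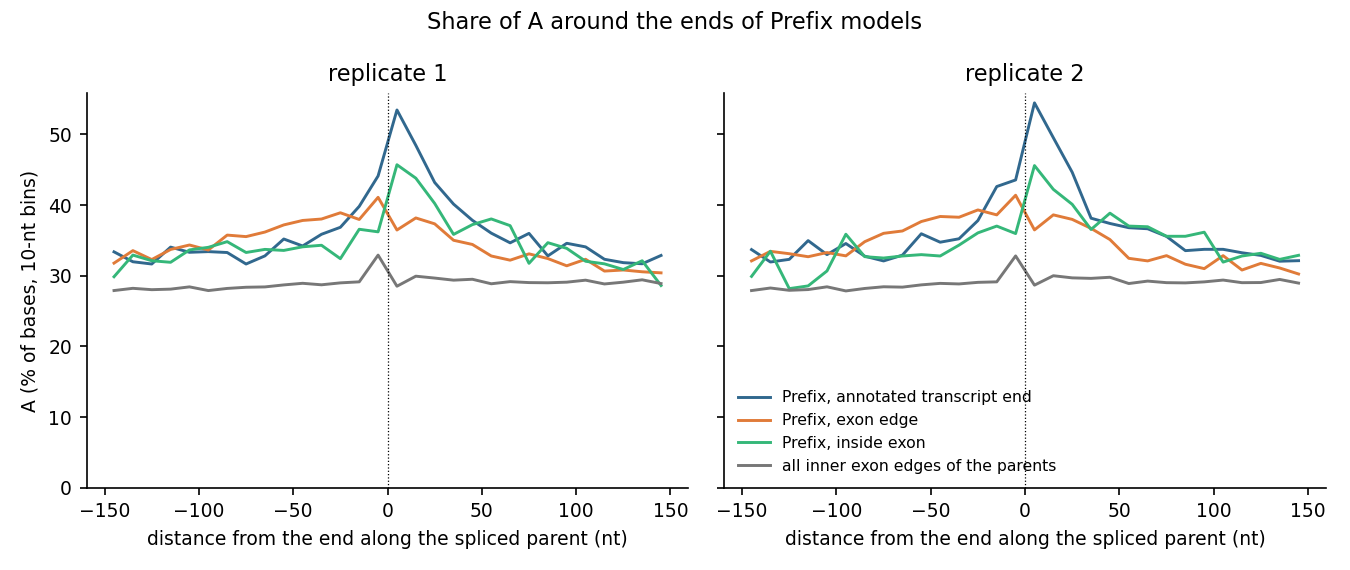
Share of A (y axis, percent of bases in 10-nt bins) by distance from the end along the spliced parent (x axis, nt, 0 marks the end), for members that end at an annotated transcript end (blue), at an exon edge (orange) or inside an exon (green) and for all inner exon edges of the same parents (grey), with 1 panel per library. The blue line is highest in the first bin after the end, at 53.4% and 54.4%, and the grey line stays between 27.8% and 32.9% in both libraries. Only ends that lie in an exon of the parent are included.

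A-rich sequence followed annotated inner ends more often where a member ended. Of 351 and 314 annotated transcript ends that lie in an earlier exon of a parent and where a member ends, 38.5% (33.3 to 43.8) and 38.9% (33.4 to 44.5) were followed by 12 or more A in 20 bases. Of the 2397 and 2159 such annotated ends in the same parents where no member ends, 3.96% (3.22 to 4.82) and 4.12% (3.32 to 5.05) were. The intervals are far apart in both libraries.

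Among models that end in an exon, the share with A-rich sequence was higher in those with more reads. It was 8.25% and 9.63% for Prefix models with 1 read, which are not members, 12.9% and 14.7% with 2 reads, 26.2% and 29.6% with 5 to 9 reads and 35.2% and 31.0% with 10 or more. Of chains that end in an exon, those that were members in both libraries had it in 27.1% and 25.9% of cases. Those that were members in 1 library had it in 13.0% and 14.6%. The hexamer AATAAA or ATTAAA was searched on the transcript's strand in the last 50 bases before the end. It stood there in 8.39% (6.92 to 10.1) and 9.24% (7.55 to 11.2) of members that end in an exon. The same held for 3.42% and 3.54% of inner exon edges and 4.32% and 4.40% of all windows of that length in the parents. Both hexamers are themselves rich in A, and that was not separated from the A-richness around the ends. Whether priming inside the RNA or early polyadenylation made these ends was not tested.

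Many chains recurred between libraries. Of the members, 1075 chains were members in both, which is 48.2% of the replicate 1 members and 55.4% of the replicate 2 members. Recurrence followed depth: 94.4% and 94.7% of members with 10 or more reads were shared, against 22.4% and 31.7% of those with 2 reads. The deposited ends of shared chains were equal in 78.4% of cases and within 10 nt in 84.6%. Among the 165 shared chains whose ends lay off every annotated position in both libraries, 42.4% had equal ends and 67.9% ended within 10 nt of each other. Of all 1075 shared chains, 782 (72.7%) were within 2-fold in RPM, and the median ratio of replicate 1 over replicate 2 was 0.755. Of 71 shared chains with 20 or more reads in each library, 64 were within 2-fold.

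The same chain could also carry different ends. Chgb, which encodes the granin secretogranin-1 of chromaffin granules, had 110 and 74 reads on a chain of 4 exons. In replicate 1 it ended at the exon edge, chr2:132792330-132794095 (plus strand), and in replicate 2 the deposited end lay 1407 nt before that edge. Abcb1b had 34 reads in each library on a chain of 4 exons that ended at the exon edge in replicate 1 and 987 nt into the intron in replicate 2. A deposited model has 1 end for all its reads, and the ends of single reads were not used here.

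**Figure D4:**
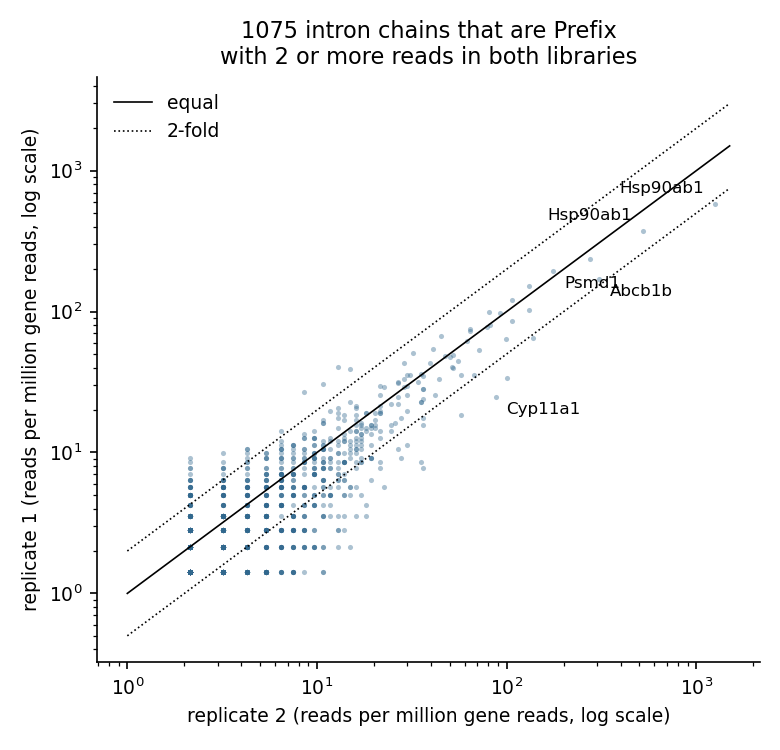
RPM in replicate 1 (y axis, log scale) against replicate 2 (x axis, log scale) for the 1075 intron chains that were members in both libraries, with a solid line at equality and dotted lines at 2-fold. Of all 1075 chains 782 lie within the dotted lines. Of the 71 chains with 20 or more reads in each library 64 lie within the dotted lines, and Cyp11a1 lies below them.

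The pair of chains with the most reads came from 1 chaperone gene. Hsp90ab1, which encodes the constitutive cytosolic HSP90 that folds kinases and steroid receptors, had a chain of 2 exons with 825 and 1169 reads (918 ± 472 RPM, SD, n = 2). It has no annotated parent and ends exactly at an annotated transcript end in the gene. A chain of 6 exons with the same last exon and end had 529 and 490 reads (450 ± 106) and keeps 5 of 10 introns, and a chain of 9 exons had 140 and 75 reads (89.7 ± 13.3). Hsp90aa1, the inducible cytosolic HSP90, had 121 and 100 reads on a chain that keeps 4 of 10 introns and ends 152 nt inside an exon with 13 A in the next 20 bases. Hsp90b1, the HSP90 of the endoplasmic reticulum, had 170 and 100 reads on a chain that keeps 6 of 17 introns, and Hspd1, the mitochondrial chaperonin, 114 and 76 reads on a chain that keeps 8 of 11. Both end at an exon edge, and the capitals in their sequences lie before it in Hsp90b1 and after it in Hspd1.

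Of 24 chaperone genes measured, 13 had a member in replicate 1 and 12 in replicate 2, against 17.9% and 16.5% of all 6413 genes with 20 or more reads in each library. Their median Prefix share was 0.373% and 0.634% of gene reads, against 0% and 0% over all genes. Members held 6.52% and 8.57% of the reads of the list, against 1.15% and 1.43% over all genes. Hsp90ab1 alone gave 1509 of 2139 and 1746 of 2205 of the list's member reads. The list holds deeply read genes, such as Hsp90ab1 with 4659 and 4147 reads, and such genes reach 2 reads on a Prefix model more easily. Depth was not matched to that of all genes.

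Psmd1, a subunit of the regulatory particle of the proteasome, had 274 and 165 reads (185 ± 12.2 RPM) on a chain that keeps 21 of 24 introns and ends 51 nt before the exon edge. Members held 85.3% and 84.0% of all its reads, so that most reads of the gene in both libraries lacked the last exons. Psmd2, another subunit of that particle, had 32 and 14 reads on a chain ending inside an exon. Eif5, which triggers GTP hydrolysis in translation initiation, had 144 and 123 reads (117 ± 21.1) on a chain with 6 of 11 introns and 15 A after the end. Eif3a, the largest subunit of initiation factor 3, held 45.1% and 41.1% of its reads on members, mostly on 3 that end at exon edges after 16, 17 and 19 exons of its 21-intron parent, with 47 and 41 reads on the first of these. Of 37 ribosomal protein genes measured, 4 (10.8%) and 7 (18.9%) had a member, against 17.9% and 16.5% of all genes.

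Genes of RNA processing included some with most of their reads on members. Srrm2, a large protein of nuclear speckles, had 92 and 129 reads (102 ± 51.6 RPM) on a chain with 4 of 14 introns, and members held 85.6% and 80.7% of its reads. Son, another speckle protein, had 48 and 94 reads (67.3 ± 47.1) on a chain of 3 exons. That chain ends 5881 nt before the end of a long exon with 16 A in the next 20 bases. Sf3b1, the U2 snRNP subunit that binds near the branch site, held 47.7% and 29.7% of its reads on members. Its Prefix share, 50.8% in replicate 1 and 29.7% in replicate 2, did not pass the test between libraries (Fisher's exact test, adjusted p = 0.432). Of 29 spliceosome and U1 genes, 12 (41.4%) and 14 (48.3%) had a member, against 17.9% and 16.5% of all genes. The list's median Prefix share was 0.800% and 1.49%, against 0% and 0% over all genes. Depth was not matched between this list and all genes, and a gene with more reads reaches 2 on a Prefix model more easily. The list of 25 cleavage and polyadenylation genes had 17 measured. Of these, 4 (23.5%) and 3 (17.6%) had a member, near the share of all genes. Papola, the poly(A) polymerase, had 8 and 5 member reads.

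Other genes with large shares had varied roles. Sptb, a spectrin of the membrane skeleton, had 215 and 122 reads on 1 chain of 17 exons without an annotated parent, which was 84.6% and 81.9% of its reads, and its ends of 76597387 and 76597399 on chromosome 12 lay 1257 nt and 1269 nt from the nearest annotated end. Sec62, a subunit of the protein translocation machinery, held 53.8% and 66.2% of its reads on members, mostly on a chain of 4 exons with 91 and 93 reads. Kif5b, a kinesin heavy chain, held 54.8% and 49.1%, with 332 and 258 reads on a chain with 10 of 25 introns. Abcb1b, an efflux pump of the plasma membrane, had the most members of any gene in replicate 1, 11, and its chain of 2 exons and 214 nt had 240 and 288 reads (239 ± 97.9 RPM), ends at the exon edge chr5:8798736-8798806 and lacks 26 of 27 introns. Golga4, a golgin, had 87 and 58 reads on a chain that ends at an annotated end 3065 nt before its exon edge, with 14 A next. Phip held 67.5% and 61.1% of its reads on members, Ankrd11, a chromatin regulator, 49.4% and 52.2%, Mtdh 54.7% and 36.3%, Clip1, a protein of growing microtubule ends, 41.6% and 43.2%, Ggnbp2 59.7% and 51.9% and Dus1l, which is related to tRNA dihydrouridine synthases, 60.2% and 57.4%. The members of Dus1l with the most reads have no annotated parent. Naa25, a subunit of the NatB acetyltransferase, had 75 and 67 reads on a chain with 21 of 23 introns, and the leading chain of Phip had 106 and 60 reads with 22 of 24 introns and 14 A after its end. Ccnl2, a cyclin of nuclear speckles, had 103 and 60 reads on a chain with 5 of 10 introns that ended 1558 nt before the exon edge in replicate 1 and 1764 nt before it in replicate 2.

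These genes are exceptions. Of 1987 genes with 100 or more reads in each library, 434 (21.8%) and 427 (21.5%) had a member, the median share on members was 0%, and 48 and 53 had 10% or more of their reads on members. The share of reads at the 90th percentile of genes was 1.48% and 1.88%.

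Of 22 genes of steroid synthesis measured, 11 (50%) and 13 (59.1%) had a member, against 17.9% and 16.5% of all genes. Members held 0.509% and 0.762% of the list's reads, against 1.15% and 1.43% over all genes. The list holds very deeply read genes, such as Cyp11b1 with 28821 and 12640 reads, and a gene with more reads reaches 2 on a Prefix model more easily. Cyp11a1, the side-chain cleavage enzyme that makes pregnenolone from cholesterol, had 35 and 82 reads on a chain of 2 exons ending 967 nt into the first lacking intron, within an exon of another transcript, chr9:58016274-58017396 (plus strand). Chains of 7 exons, with 26 and 54 reads, and of 5 exons, with 13 and 18 reads, ended at annotated ends beyond or within the next intron. Cyp11b1, the 11β-hydroxylase of corticosterone synthesis, had 13 members in replicate 2, the most of any gene there, and 138 and 86 reads (94.9 ± 3.95 RPM) on a chain that lacks only the last of 8 introns and runs 1646 nt past its last shared exon edge. Cyp11b1 and Cyp11b2, the aldosterone synthase, are close copies, so the split of their reads is uncertain. A like chain of Cyp11b2 had 95 and 42 reads. Star, which carries cholesterol into mitochondria, had 50 and 63 reads on a chain lacking the last of 6 introns, whose end lay past that intron in replicate 1 and inside it in replicate 2.

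The counts of the other lists stand against 17.9% and 16.5% of all genes with a member, and several are near that share. Depth was not matched between these lists and all genes. Of 25 genes of cholesterol supply measured, 5 (20%) and 4 (16%) had a member, of 15 chromaffin granule and catecholamine genes 6 and 4, and of 13 receptors with known truncated forms 5 and 3. Fgfr2, a fibroblast growth factor receptor, had 3 and 12 member reads and Flt1, a VEGF receptor known for a soluble truncated form, 0 and 5. Of 24 genes of ATP synthase and the respiratory chain, 8 and 6 had a member with 0.0756% and 0.109% of the list's reads. Of 16 matrix genes 3 (18.8%) and 2 (12.5%) had a member, of 11 imprinted coding genes 1 and 2, and of 5 nuclear noncoding RNAs 1 and 1. That gene was Meg3, an imprinted noncoding RNA, with 50 and 56 member reads.

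The Prefix share of each gene was then compared between libraries by Fisher's exact test on reads, two-sided, with p-values adjusted after Benjamini and Hochberg and a threshold of 0.05. This compares 2 libraries of 1 group and covers counting error alone. Of 6413 genes with 20 or more reads in each library 19 differed (0.296%), 7 with the higher share in replicate 1 (0.109%) and 12 in replicate 2 (0.187%), and 131 had an unadjusted p under 0.05. The largest difference was in Suds3, a subunit of the Sin3 deacetylase complex, with 213 of 347 reads in replicate 1 (61.4%, 56.0 to 66.5) and 3 of 230 in replicate 2 (1.30%, 0.270 to 3.76; adjusted p = 1.23e-55, Fisher's exact test). In the other direction 2310033P09Rik had 0 of 54 reads in replicate 1, which allows up to 5.56%, and 16 of 33 in replicate 2 (48.5%, adjusted p = 9.02e-06, Fisher's exact test).

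Many of these differences came with a change of label. In 11 of the 19 genes the most-read Prefix chain is present in the other library under another class. The leading chain of Suds3 had 210 reads as Prefix in replicate 1 and 118 reads as NNC in replicate 2, that of Agpat3, an acyltransferase of phosphatidic acid synthesis, 123 reads as Prefix and 68 as NIC, and that of Cars2, the mitochondrial cysteinyl-tRNA synthetase, 83 as Prefix and 39 as NIC. How the labels were assigned in each library is not given in the sources used here. The chains that were Prefix in either library were then counted in both under any label, each for the gene its model was assigned to. Models labelled as annotated transcripts and models outside annotated genes were left out. Of the 19 genes, 6 remained past the threshold and no other gene joined them. This count was added after the data were seen.

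**Figure D5:**
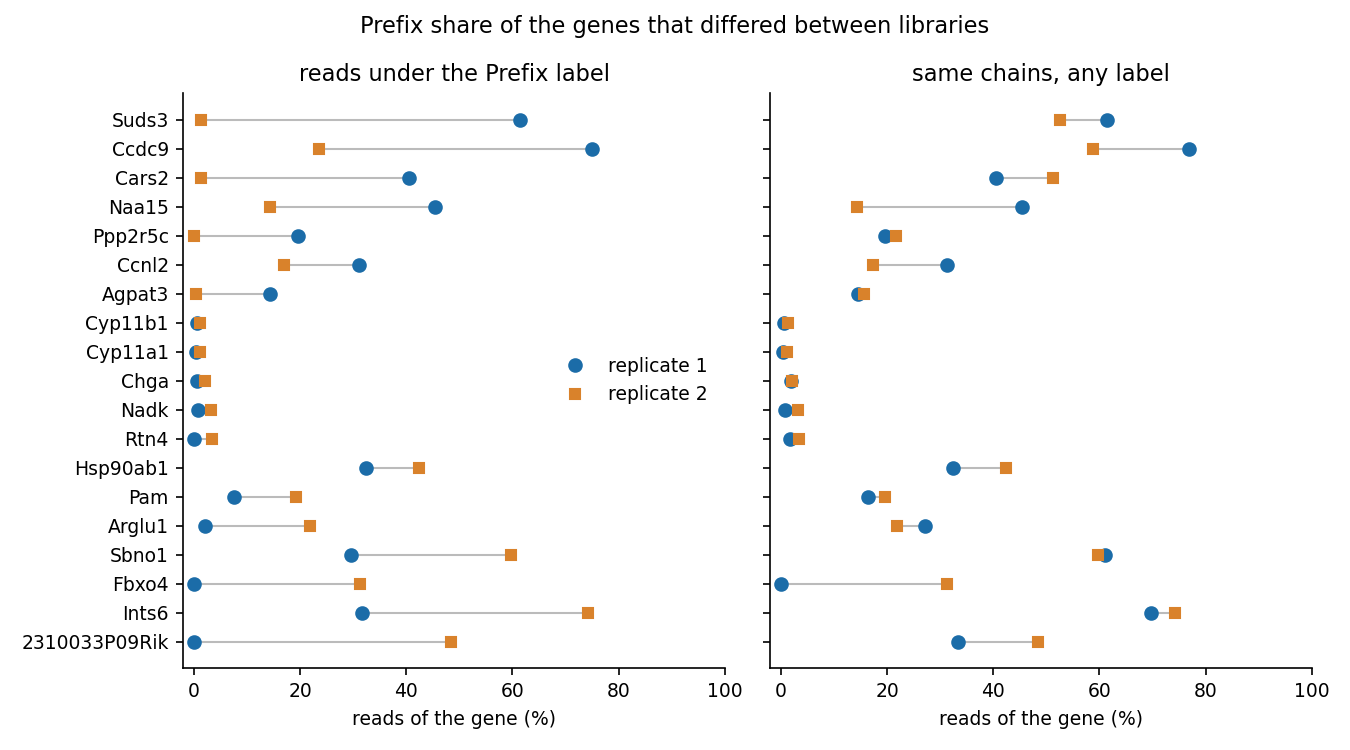
Share of a gene's reads (x axis, percent) in replicate 1 (blue circles) and replicate 2 (orange squares) for the 19 genes that differed (y axis). Reads were counted on models labelled Prefix (left) and on the same chains under any label but that of an annotated transcript (right). Suds3 stands at 61.4% and 1.30% on the left, and 6 of the 19 genes passed the test on the right.

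The 6 genes that passed under any label were Hsp90ab1, Cyp11a1, Cyp11b1, Nadk, Ccnl2 and Naa15, the last with an adjusted p of 0.0496 (Fisher's exact test). Hsp90ab1 had 32.5% (31.1 to 33.8) of 4659 reads in replicate 1 and 42.3% (40.8 to 43.8) of 4147 in replicate 2 on Prefix models (adjusted p = 1.96e-18, Fisher's exact test), with the chain of 2 exons at 825 and 1169 reads. Without models lacking an annotated parent its shares were 14.7% and 13.9%. Cyp11a1 had 0.331% (0.266 to 0.406) of 27214 reads in replicate 1 and 1.17% (1.01 to 1.34) of 17278 in replicate 2 (adjusted p = 3.78e-22, Fisher's exact test). Cyp11b1 had 0.656% and 1.20% (adjusted p = 3.47e-05) and Nadk, the NAD kinase, 0.684% and 3.20% (adjusted p = 0.00751, both by Fisher's exact test). With Prefix and Both together the shares of Cyp11b1 were 1.28% and 1.31% (adjusted p = 1, Fisher's exact test), and with an annotated parent only its adjusted p was 0.209. The tests placed Ccnl2 with 31.1% and 17.0% (adjusted p = 0.00751, Fisher's exact test), and Naa15, a subunit of the NatA acetyltransferase, with 45.5% and 14.3% (adjusted p = 0.0199, Fisher's exact test), higher in replicate 1. With reads on spliced models as the denominator the adjusted p of Naa15 was 0.183.

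The other named genes did not pass the test when chains were counted under any label. In Fbxo4 the counted shares stayed at 0% and 31.2%, with an adjusted p of 0.0951 in place of 0.035 (Fisher's exact test). That count did not hold the 1 read that its leading chain had in replicate 1 as NIC. As labelled, the Prefix shares were 39 of 52 reads and 12 of 51 reads in Ccdc9, 40.5% and 1.28% in Cars2, 19.6% and 0% in Ppp2r5c, a regulatory subunit of phosphatase 2A, 31.6% and 74.2% in Ints6, an Integrator subunit, 0% and 31.2% in Fbxo4, which encodes an F-box protein, 29.6% and 59.7% in Sbno1 and 2.17% and 21.8% in Arglu1. Of the lists, 2 chromaffin genes were higher in replicate 2, Chga, chromogranin A, with 0.512% and 2.04%, and Pam, the enzyme that amidates peptide hormones, with 7.63% and 19.2%. In both of these the leading chain of replicate 2 was present in replicate 1 as a model of the class Both, with 102 reads in Chga and 30 in Pam.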

How the data were processed

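Long-read RNA sequencing was deposited for 2 libraries of 1 group. Per the file headers and the text beside them, the authors' tables hold whole-number counts of reads per transcript model on mm10 with GENCODE M21, without normalization, for models with at least 1 read. The column names match those that TALON writes. The aligner, program versions, read filters and how model ends were set are not given in the sources used here.

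Members, gene lists, tests and alternatives were chosen with earlier results of these data known. Introns and ends came from the deposited annotations. A parent is an annotated transcript of the gene whose first introns are the member's, and among several the one with the most reads in the library, then the fewest introns. An end was placed, in this order, at an annotated transcript end (50 nt), at the exon edge (10 nt), inside the exon, or in or past the next intron. The design called for genome sequence around ends. Spliced GENCODE M21 transcripts were used instead, for ends in exons only, with 12 or more A in the next 20 nt and hexamers in the last 50 nt.

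Genes with 20 or more reads in each library entered Fisher's exact test (two-sided), with p-values adjusted after Benjamini and Hochberg and called under 0.05. On simulated data of the same 6413 genes this step called 77% of genes shifted by 10 percentage points, 100% of those shifted by 30 and 0 of 6213 unchanged genes. The shifted genes were drawn from those with 200 or more reads over both libraries, and every shift was upward in replicate 1. Counts were binomial, without changes of label, so recovery in genes with fewer reads and the effect of relabelling were not tested. ERCC spike-ins, 18340 and 15552 reads, and new genes were left out of gene totals. At a count of 0 the limit is 3 reads of the total.

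Named were the 20 chains with the highest mean RPM, the 15 genes with the highest member share among those with 100 or more reads, the 6 largest and 6 smallest differences past the test, and up to 3 genes per list with the most member reads. Other genes, among them Agpat3, Nadk, Mbd3 and Cyp11b2, and the sequences at annotated ends and exon edges, were chosen after their values were seen. Sequences of chromosome 18 are not printed, and some other sequences and 1 gene of the lists are not reported here. Statistics were computed with scipy 1.17.1, tables handled with pandas 2.3.3 and numpy 2.4.6 under Python 3.11.15, and plots drawn with matplotlib 3.10.9, with the seed 20260.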

Additional observations from a re-analysis of the deposited data

How the results depend on the processing

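No paired analysis was possible because the series has 1 group, and each library is 1 side of the only test. Values are means of both libraries. The 2083.5 member models became 6915 with 1 or more reads, 644.5 with 5 or more and 274.5 with 10 or more, and the 1412 genes with a member became 497.5 at 5 or more reads. The genes with a member summed over lists, 72, became 35.5 at 5 or more reads. The share of reads, 1.31%, became 1.61% with Prefix and Both together and 1.09% with an annotated parent only. The share of ends at annotated ends or exon edges, 75.7%, was 71.5% without transcripts marked incomplete, 80.2% weighted by reads and 83.0% at 5 or more reads. The median of 5 introns lacking was 3.5 with the shortest parent. The A-rich share, 21.6%, was 9.06% for a run of 6 A, 5.48% for 15 or more A (against 0.0817% and 0.0904% of inner exon edges), 32.5% weighted by reads and 14.4% without annotated ends. The hexamer share, 8.82%, was 5.42% for AATAAA alone and 6.31% in 40 nt. Shared chains numbered 1841 instead of 1075 when 1 read in the other library sufficed. The 19 genes that differed became 10 with an annotated parent only and 6 under any label, and between 14 and 21 in the other settings. The settings with an annotated parent only, under any label, with Prefix and Both together in the gene test, without transcripts marked incomplete and without annotated ends were added after seeing the data.

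Leaving out each library gave 1939 to 2228 member models, 1.18% to 1.44% of reads, 1323 to 1501 genes, 75.2% to 76.2% of ends at annotated positions, 5 to 5 introns, 20.9% to 22.3% A-rich, 8.39% to 9.24% with a hexamer and 71 to 73 list genes. Differences in Prefix share (replicate 1 minus replicate 2, percentage points) turned round with an annotated parent only in Cars2 (-1.28), Ints6 (1.32) and Hsp90ab1 (0.813), with Prefix and Both together in Arglu1 (5.33), and under any label in Cars2 (-10.8), Ppp2r5c (-2.02), Sbno1 (1.39), Arglu1 (5.33) and Agpat3 (-1.04). These settings differ from the main one only in the models counted. Why the libraries differed in these genes was not tested. Depth limits the list of members, since 942 and 840 of them had 2 reads.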
